A study of Rattus norvegicus with 20 samples.

Results

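The genes described here carry out DNA replication or supply its building blocks. They were chosen by name for their roles, with earlier results of these data known. The 45 genes include those of the replicative helicase, origin licensing, helicase activation, the polymerases, and the clamp and its loader. The others act in fragment joining, deoxynucleotide synthesis and the control of S-phase entry. All 45 were found among the 15503 genes of the deposited table, 33 by the KEGG gene name, 9 by the protein accession and 3 by the protein name, and all 45 passed the filter on low counts that left 15449 genes. RNA was sequenced from cultures of neonatal rat cardiomyocytes, heart muscle cells taken from newborn rats and grown in a dish. The cultures were kept for 72 h with histidine at 100 nM and doxorubicin at 1 µM together, with doxorubicin at 1 µM alone, with histidine at 100 nM alone, or with phosphate-buffered saline (PBS), and each of the 4 groups held 5 libraries. Histidine is an amino acid, and doxorubicin is an anthracycline that binds DNA, poisons type II topoisomerase and damages the heart. Strain and sex are not given in the labels, which also leave unsaid whether the 5 libraries of a group are independent cultures. A p-value therefore speaks of the scatter among these libraries, and that scatter could be technical in part.

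Replication begins when the origin recognition complex, with Cdc6 and Cdt1, loads rings of the MCM helicase on DNA. In S phase, Cdc45 and the GINS complex turn these rings into moving helicases, primase and the polymerases copy the strands, and the clamp and its loader keep the polymerases on the template. Ribonucleotide reductase, thymidylate synthase and thymidine kinase provide the deoxynucleotides. Many of these genes are transcribed under E2F factors around the G1/S boundary and are low in resting cells. Heart muscle cells of the rat leave the cell cycle soon after birth, while other cells of the heart go on dividing in culture.

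Libraries held 53246205 to 83624651 reads. The marker genes of several cell types moved with doxorubicin. The summed level of 12 cardiomyocyte markers was 176 to 303 CPM (reads of the gene scaled to a common library total) in doxorubicin libraries, against 1029 to 1179 CPM in PBS libraries, and 10 of the 12 fell. That of 10 fibroblast markers was 34860.2 to 59701 CPM with doxorubicin against 77531 to 84598 CPM with PBS, many times the cardiomyocyte sum, but 3 of the 10 fell, 1 rose and 6 did not pass the test, with a median log2 fold change of -0.13. Col1a1 made up a large share of that sum. The 12 macrophage and leukocyte markers all fell, to 68.2 to 155 CPM with doxorubicin, against 2905 to 3063 CPM with PBS. Of 6 endothelial markers 4 fell and 1 rose, of 8 smooth muscle and pericyte markers 7 fell, and of 6 epicardial markers 2 rose and 2 fell. Over all genes, 21.5% fell and 21.7% rose with doxorubicin against PBS. Between both compounds and histidine, the cardiomyocyte sum was 195 to 218 against 935 to 1103 CPM, the fibroblast sum 49430.4 to 63720.0 against 61769 to 81111 CPM (2 of the 10 fell and 1 rose, median 0.13), and the macrophage and leukocyte sum 70.7 to 99.6 against 2919.7 to 3431 CPM. The defining cardiomyocyte genes were present, with PBS means of 179 CPM for Myh6 and 164 CPM for Tnnt2, beside 42013 CPM for the collagen gene Col1a1. No marker was at 0 in all libraries of a group. The part of these shifts in the results below was not tested, and in RNA from whole cultures fewer cells of a type and less RNA per cell cannot be told apart. Doxorubicin replicate 4 stood apart from all other libraries, at 107.9 on the second principal component of log2 CPM, against -18.9 to 9.03 in the other 19.

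With doxorubicin alone against PBS, 43 of the 45 genes fell, 1 rose (Tyms, thymidylate synthase) and 1 did not pass the test (Rfc4, a clamp loader subunit), at an adjusted p under 0.05 in edgeR's quasi-likelihood F test with Benjamini-Hochberg adjustment over all genes. Over all 15449 genes, 21.5% were called lower and 21.7% higher in that comparison. The median log2 fold change of the 45 was -1.32, beside 0.05 over all genes, and 32 of the 43 were at least 2-fold lower, as were 8.30% of all genes. Without doxorubicin replicate 4, 44 fell and 1 rose. Summed over the 45, expression was 645 ± 39.1 CPM in doxorubicin libraries and 1559.8 ± 11.7 CPM in PBS libraries (SD, n = 5 each).

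The same drug step was measured a second time, in cultures that also had histidine, and those libraries are not shared with the first comparison. With both compounds against histidine alone, 44 genes fell and 1 rose, again Tyms, beside 20.3% of all genes called lower and 19.9% called higher. The median was -1.46, against 0.01 over all genes, and 36 genes were at least 2-fold lower, as were 8.06% of all. Summed expression was 607 ± 41.9 CPM with both compounds and 1571 ± 31.7 CPM with histidine (SD, n = 5 each). The 43 genes that fell with doxorubicin against PBS also fell here, and 16.9% of all genes were called lower in both comparisons. Across the 45 genes the 2 sets of log2 fold changes ran together (Pearson's r 0.963, Spearman's rho 0.950, a description over genes, which are not independent). With doxorubicin against PBS, the ranges of 41 genes lay wholly below PBS and that of Tyms wholly above it, where 17.5% and 13.6% of all genes did so. Gins4, Rfc4 and Rpa1 overlapped. In the second comparison no gene overlapped: 44 lay below and 1 above, where 18.7% and 16.5% of all genes did so.

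**Figure D1:**
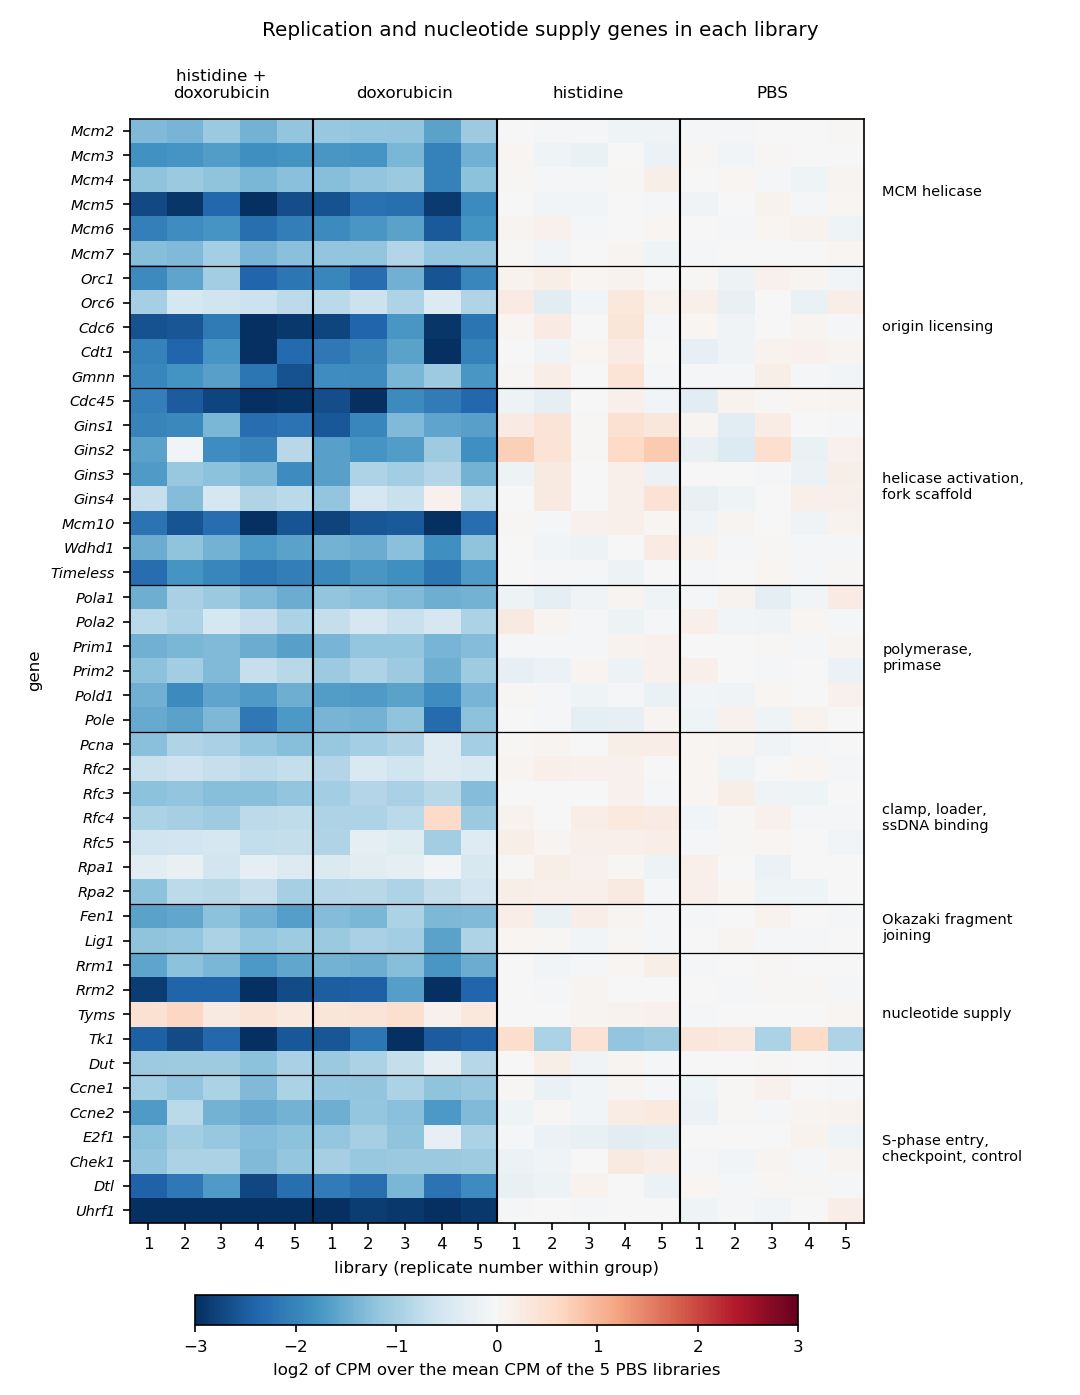
Heat map of the 45 genes (rows, grouped by role) in the 20 libraries (columns, grouped by treatment), coloured by log2 of the CPM over the mean CPM of the 5 PBS libraries, with colours saturating at -3 and 3. Most rows are blue in the 10 libraries with doxorubicin and pale in the other 10. Exceptions are Tyms, red with doxorubicin, Tk1, which splits in libraries without the drug, and doxorubicin replicate 4, where Rfc4 and Gins4 are above their PBS means.

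The fall was summarised for each step of replication. Origin licensing genes had a median log2 fold change of -1.99 with doxorubicin against PBS, helicase activation and fork genes -1.66, MCM subunits -1.49, nucleotide supply genes -1.47, polymerase and primase genes -1.30, genes of S-phase entry and its control -1.25, the fragment-joining pair -1.19, and the clamp, loader and single-strand binding group -0.56. In the second comparison the clamp group stood at -1.04 and origin licensing at -2.12. Summed over the clamp group, doxorubicin libraries 1 to 5 had 128.6, 144.6, 145.9, 183.9 and 139.3 CPM. Replicate 4 was thus the highest, and its part in the median of -0.56 was not tested. These medians are descriptions of 2 to 8 genes each, and differences between the groups were not tested.

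**Figure D2:**
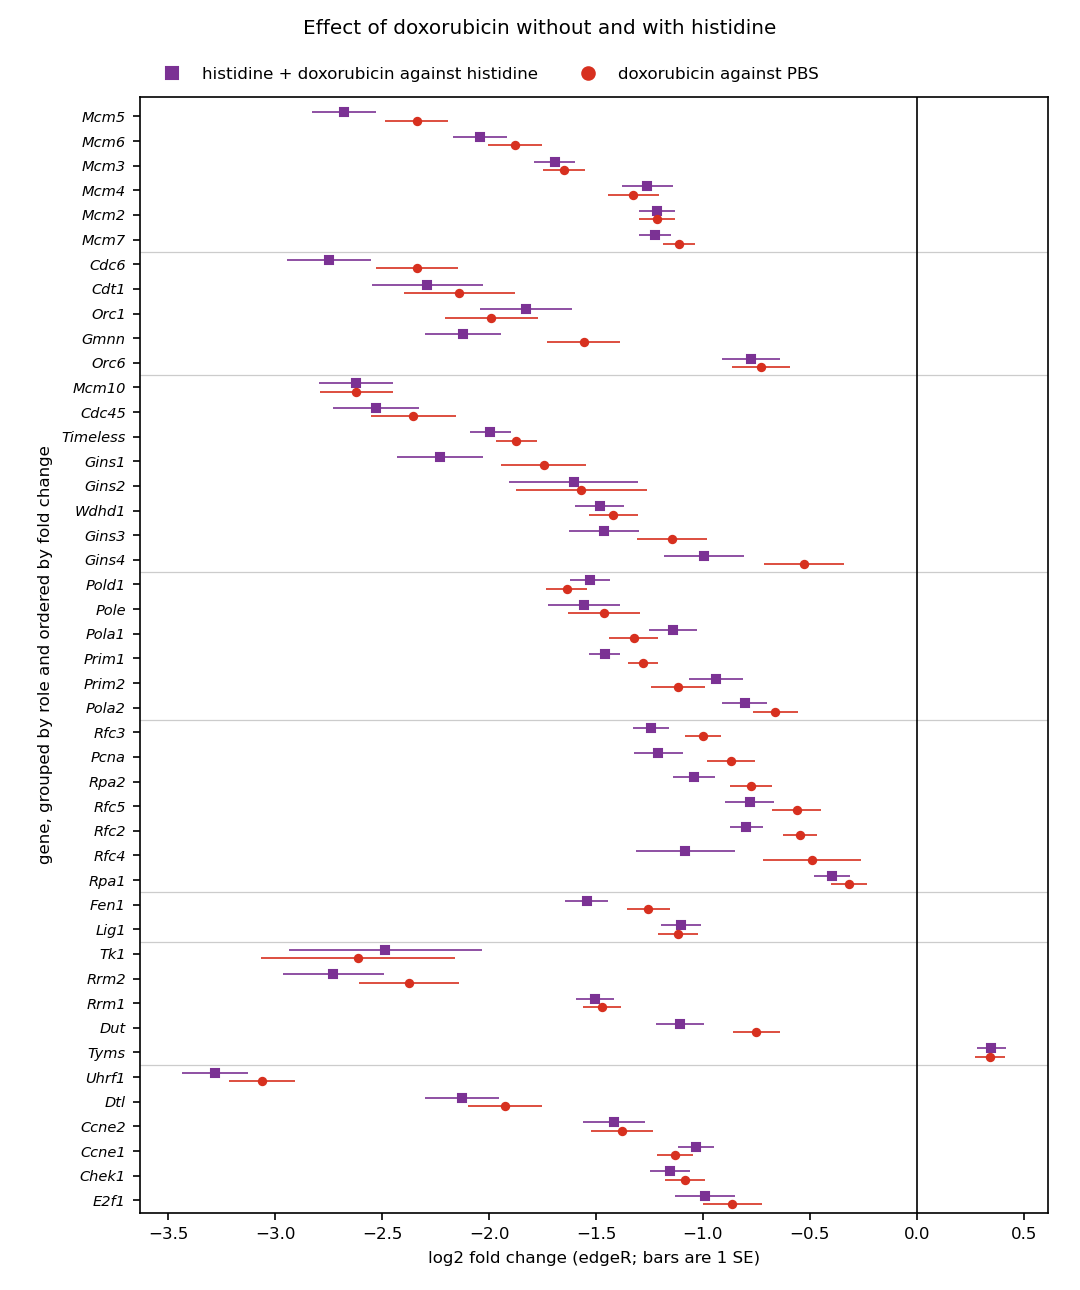
Log2 fold change of each of the 45 genes (rows, grouped by role and ordered by size) with both compounds against histidine (squares) and with doxorubicin against PBS (circles). Bars are 1 SE from edgeR. All genes but Tyms lie left of 0 in both comparisons, from -3.06 for Uhrf1 to -0.32 for Rpa1 with doxorubicin against PBS.

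Most promoter windows of these genes hold an E2F word. In RefSeq's promoter windows of the rat assembly GRCr8, each 250 bases before to 50 after a transcription start, 38 of the 45 genes had an entry. The others are Mcm4, Orc1, Cdc6, Gins4, Rrm2, Ccne2 and E2f1. Each window was searched on both strands for 3 elements. The E2F core was taken as the letters TTGGCGC or, with other middle letters, as TTCCCGC or as the variant TTCGCGC or as the further variant TTGCCGC, and matches of these may overlap. The cell cycle homology region (CHR) was taken as TTTGAA or, with a different middle letter, as TTCGAA, and the CCAAT box by its own letters. The E2F core was present for 27 of the 38 genes, 71.1%, beside 12.7% of 19005 protein-coding genes in the same table. A CCAAT box was present for 22, 57.9%, beside 39.8%, and a CHR word for 6, 15.8%, beside 19.6%. The windows of these genes were also richer in G and C, with a median of 59.7% beside 55.0% over all protein-coding windows, and the E2F words are themselves rich in G and C. The 27 genes with an E2F word had a median log2 fold change of -1.42 with doxorubicin against PBS, and the 11 without had -0.87. Both sets spread widely, from -3.06 to 0.34 and from -2.61 to -0.32, and that difference was not tested. The 22 genes with a CCAAT box had a median of -1.52, and the 16 without had -1.12. For the CHR word the order was reversed, with -1.13 for the 6 genes with it and -1.37 for the 32 without. These differences were not tested either. A match of letters is a description and shows no binding.

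The windows below show these words in place. For 7 of the 8 roles (all but the clamp and loader) the gene with the largest change among those with a match is given. Tyms, the gene that rose, is added. Tk1 fell more than Rrm1 but had none of the 3 elements. Cdc6 fell more than Cdt1, and Rrm2 more than Rrm1, but neither had an entry. Because a match was required, these windows do not show whether the words go with larger falls. Letters run 5′ to 3′ on the strand of the gene, and capitals mark matches to any of the 3 elements, on either strand.
Uhrf1: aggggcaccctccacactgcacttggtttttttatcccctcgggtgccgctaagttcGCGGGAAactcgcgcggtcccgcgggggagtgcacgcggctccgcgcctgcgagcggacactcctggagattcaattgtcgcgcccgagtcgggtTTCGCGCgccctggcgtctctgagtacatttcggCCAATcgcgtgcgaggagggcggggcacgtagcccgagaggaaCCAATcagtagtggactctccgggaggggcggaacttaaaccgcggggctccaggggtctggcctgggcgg
Mcm10: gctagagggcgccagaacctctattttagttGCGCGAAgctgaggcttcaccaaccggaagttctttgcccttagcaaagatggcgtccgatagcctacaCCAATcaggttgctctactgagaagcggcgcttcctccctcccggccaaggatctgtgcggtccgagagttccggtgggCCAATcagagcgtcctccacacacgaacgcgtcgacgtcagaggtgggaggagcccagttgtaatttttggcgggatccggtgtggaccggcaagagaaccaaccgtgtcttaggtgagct
Mcm5: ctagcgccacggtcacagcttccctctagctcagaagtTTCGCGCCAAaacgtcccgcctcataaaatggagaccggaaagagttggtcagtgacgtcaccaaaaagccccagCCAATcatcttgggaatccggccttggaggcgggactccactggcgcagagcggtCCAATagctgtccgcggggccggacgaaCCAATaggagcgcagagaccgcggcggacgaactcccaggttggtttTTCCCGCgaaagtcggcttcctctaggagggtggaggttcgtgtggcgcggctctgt
Cdt1: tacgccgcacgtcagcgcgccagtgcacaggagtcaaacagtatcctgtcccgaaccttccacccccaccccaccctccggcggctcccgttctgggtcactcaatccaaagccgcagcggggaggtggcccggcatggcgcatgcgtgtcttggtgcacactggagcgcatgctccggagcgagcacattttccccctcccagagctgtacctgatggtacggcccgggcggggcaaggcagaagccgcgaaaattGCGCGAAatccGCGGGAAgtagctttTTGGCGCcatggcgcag
Pold1: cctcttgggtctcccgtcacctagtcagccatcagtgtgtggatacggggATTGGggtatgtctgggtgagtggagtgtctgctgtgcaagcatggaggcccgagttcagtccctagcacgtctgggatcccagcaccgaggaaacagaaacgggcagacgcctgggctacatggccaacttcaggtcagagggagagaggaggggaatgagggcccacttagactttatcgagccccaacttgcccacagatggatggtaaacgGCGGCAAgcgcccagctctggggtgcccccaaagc
Rrm1: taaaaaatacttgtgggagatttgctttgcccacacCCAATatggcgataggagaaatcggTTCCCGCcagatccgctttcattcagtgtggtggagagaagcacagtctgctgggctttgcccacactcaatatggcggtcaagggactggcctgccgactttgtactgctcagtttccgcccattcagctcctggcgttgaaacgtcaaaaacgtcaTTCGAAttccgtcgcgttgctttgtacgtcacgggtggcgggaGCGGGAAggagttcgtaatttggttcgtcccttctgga
Fen1: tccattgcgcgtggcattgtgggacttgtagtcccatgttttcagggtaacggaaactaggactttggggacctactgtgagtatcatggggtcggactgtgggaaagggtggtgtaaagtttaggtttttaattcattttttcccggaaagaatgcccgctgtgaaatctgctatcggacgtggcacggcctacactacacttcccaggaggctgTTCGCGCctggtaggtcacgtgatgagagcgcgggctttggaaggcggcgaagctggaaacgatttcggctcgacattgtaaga
Tyms: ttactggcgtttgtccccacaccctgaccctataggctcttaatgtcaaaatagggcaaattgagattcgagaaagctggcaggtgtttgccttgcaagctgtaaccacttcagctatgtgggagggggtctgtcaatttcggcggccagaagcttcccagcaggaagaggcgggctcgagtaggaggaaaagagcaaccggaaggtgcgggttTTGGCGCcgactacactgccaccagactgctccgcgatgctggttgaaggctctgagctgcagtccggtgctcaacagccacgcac
In GRCr8 these windows are chr9:1222936-1223235 (plus strand, the third of 3 windows of Uhrf1), chr17:78175137-78175436 (plus), chr19:13488563-13488862 (plus), chr19:67528999-67529298 (plus), chr1:104172933-104173232 (minus), chr1:166235654-166235953 (plus), chr1:216274347-216274646 (minus) and chr9:120776034-120776333 (minus). The windows of Mcm5 and Cdt1 held 3 E2F words each, those of Uhrf1 and Rrm1 2 each, and those of Mcm10, Pold1, Fen1 and Tyms 1 each. The first 2 E2F words of Mcm5 overlap. All E2F words of Cdt1 and Pold1, and 1 of the 2 of Rrm1, lie after the transcription start. Mcm5 also had 3 CCAAT boxes, and Uhrf1 and Mcm10 had 2 each. Rrm1 alone among the 8 carried a CHR word. The Tyms window, from the gene that rose, held an E2F word 36 bases before the start, much as the Fen1 window, from a gene that fell, held its word 34 bases before the start.

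The MCM helicase is a ring of 6 related subunits, and all 6 genes fell. Mcm5, at chr19:13483066-13504389 in the files' build mRatBN7.2, changed most. It measured 10.4, 13.6, 13.3, 8.81 and 17.1 CPM in doxorubicin libraries 1 to 5, against 59.03, 63.02, 68.6, 62.7 and 66.6 CPM in PBS libraries. With both compounds it measured 9.81, 8.53, 12.6, 7.37 and 10.2 CPM, against 64.4, 60.8, 60.2, 63.9 and 61.3 CPM with histidine. Every library with the drug was far below every library without it. Its log2 fold change was -2.34 (SE 0.15, edgeR adjusted p 1.27e-10) with doxorubicin against PBS and -2.68 (SE 0.15, adjusted p 1.95e-11) with both compounds against histidine. Mcm7 changed least of the subunits with doxorubicin against PBS, at 25.96, 26.01, 32.04, 26.5 and 26.6 CPM in doxorubicin libraries against 58.04, 59.02, 58.6, 58.8 and 61.97 CPM in PBS libraries. Doxorubicin replicate 3 was the highest of its group, and the groups still did not overlap. Mcm7 fell by 1.11 (SE 0.07) on the log2 scale, and with both compounds against histidine by 1.23 (SE 0.07). Between these lay Mcm6 at -1.88, Mcm3 at -1.65, Mcm4 at -1.33 and Mcm2 at -1.21, all lower in both comparisons. Mcm7 overlaps Cops6 on the other strand over 4160 bases, and the labels describe no step that keeps strand, so how their reads were divided there is not known. A second gene of the table carries the Mcm4 protein name and held 2.34 to 3.68% of the reads of both, by group.

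Because the MCM subunits form a ring in equal parts, their levels per gene length were set side by side in FPKM (reads scaled by gene length and library total). The highest of the 6 subunits exceeded the lowest 2.63 ± 0.516 times in doxorubicin libraries and 1.26 ± 0.0378 times in PBS libraries (SD, n = 5 each). With both compounds the ratio was 3.36 ± 0.624, and with histidine 1.34 ± 0.112. The 2 sets of libraries did not overlap, with 1.92 to 3.195 in doxorubicin libraries against 1.21 to 1.296 in PBS libraries. Mcm2 and Mcm5, nearly level in PBS libraries at 20.4 ± 0.384 and 18.8 ± 1.08 FPKM, stood at 9.15 ± 1.61 and 3.87 ± 1.098 FPKM with doxorubicin.

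**Figure D3:**
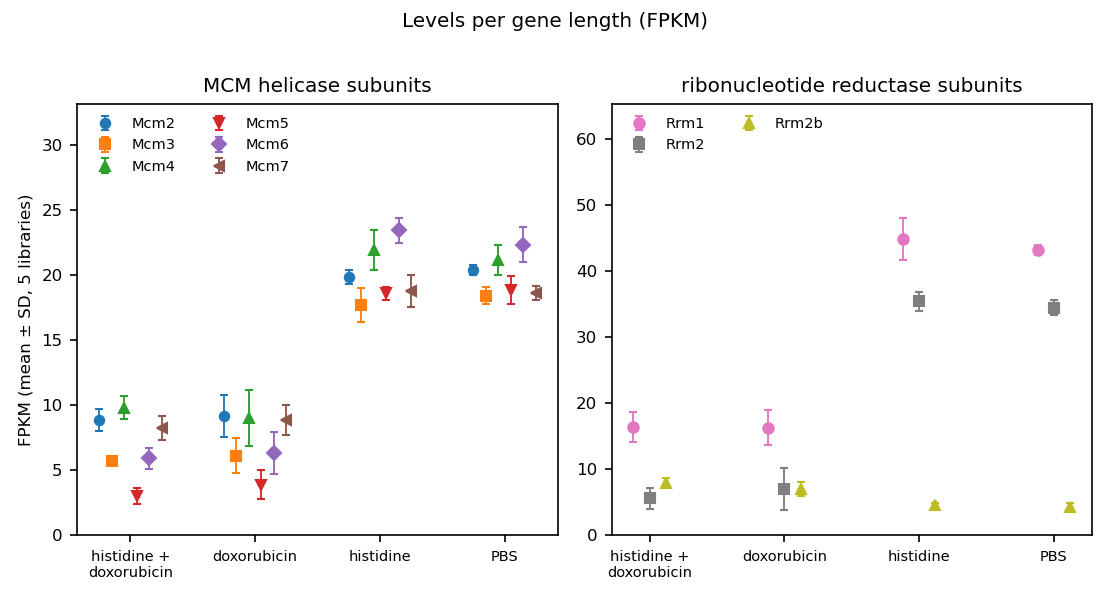
FPKM (mean and SD over 5 libraries) of the 6 MCM helicase subunits (left) and of the ribonucleotide reductase subunits Rrm1, Rrm2 and Rrm2b (right) in the 4 groups. The MCM subunits lie close together in histidine and PBS libraries and apart in libraries with doxorubicin, where Mcm5 is lowest, and Rrm2 drops below or level with Rrm2b there.

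Origin licensing genes fell in both comparisons, all 5 of them. Cdc6, the ATPase that helps load the MCM ring, measured 1.74, 2.25, 3.47, 1.56 and 2.57 CPM in doxorubicin libraries, against 12.2, 10.96, 11.6, 12.5 and 11.4 CPM in PBS libraries. Its ranges were 1.402 to 2.71 CPM with both compounds and 11.5 to 15.03 CPM with histidine. No library with the drug reached a library without it, and Cdc6 fell by 2.34 (SE 0.19, edgeR adjusted p 5.03e-09) and by 2.75 (SE 0.20, adjusted p 5.93e-10) on the log2 scale. Cdt1, the other loading factor, fell by 2.14 and 2.29, and Orc1, the largest subunit of the origin recognition complex, by 1.99 and 1.83. Gmnn, geminin, which blocks Cdt1 after S phase has begun, fell by 1.56 and 2.12. Orc6, the smallest subunit of that complex, moved least, with 5.21, 5.85, 4.82, 6.92 and 4.903 CPM in doxorubicin libraries against 10.2, 7.87, 9.26, 8.05 and 10.6 CPM in PBS libraries. The lowest PBS library of Orc6 was above the highest doxorubicin library by less than 1 CPM. Its log2 fold change was -0.73 (SE 0.14, edgeR adjusted p 0.000209), and -0.78 with both compounds against histidine.

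Helicase activation and fork genes, 8 in all, likewise fell in both comparisons. Mcm10, which is needed to start the assembled helicase, measured 2.71, 3.17, 3.25, 2.16 and 3.85 CPM in doxorubicin libraries against 17.3, 19.9, 18.6, 17.4 and 19.98 CPM in PBS libraries. Its ranges were 1.83 to 4.02 CPM with both compounds and 18.1 to 20.6 CPM with histidine. The gap between the groups was several times the spread within them, and the log2 fold change was -2.62 (SE 0.17, edgeR adjusted p 1.81e-10) and -2.62 (SE 0.17, adjusted p 1.63e-10). Cdc45, the helicase cofactor, fell by 2.36 and 2.53. Timeless, a fork protection protein, fell by 1.87 and 1.99, and Wdhd1, which ties the helicase to polymerase alpha, by 1.42 and 1.48.

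The GINS complex, which joins Cdc45 on the ring, has 4 subunits, and their genes fell unequally. Gins1 fell by 1.74 with doxorubicin against PBS, Gins2 by 1.57, Gins3 by 1.14 and Gins4 by 0.53. Gins4 had 4.002, 6.35, 5.71, 9.88 and 5.34 CPM in doxorubicin libraries, against 7.71, 8.29, 8.94, 10.1 and 10.1 CPM in PBS libraries. Doxorubicin replicate 4 lay inside the PBS range, and the other 4 lay below it. The call on Gins4 (edgeR adjusted p 0.0281) was lost when any of doxorubicin replicates 1, 3 and 5 or PBS replicates 4 and 5 was left out, with adjusted p of 0.0569 to 0.0699. With both compounds against histidine, where the groups did not overlap, it fell by 1.00 (SE 0.19, adjusted p 0.000254). Gins4 shares 15173 bases with Golga7 on the same strand, and Gins2 shares 12570 with Emc8, so their counts depend on how reads were assigned between neighbours.

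All 6 polymerase and primase genes fell in both comparisons. Pold1, the catalytic subunit of polymerase delta, measured 10.01, 9.71, 10.5, 8.79 and 12.04 CPM in doxorubicin libraries and 29.8, 29.6, 33.1, 31.5 and 34.7 CPM in PBS libraries. The 2 groups were far apart, with a log2 fold change of -1.64 (SE 0.10, edgeR adjusted p 3.33e-11), and -1.53 (SE 0.10, adjusted p 8.17e-11) with both compounds against histidine. Pole, the catalytic subunit of polymerase epsilon, fell by 1.46 and 1.56. Of polymerase alpha, the catalytic Pola1 fell by 1.32 and 1.14, and its partner Pola2 by 0.66 and 0.80. Pola2 was the least changed of the 6, with 8.72, 10.1, 9.04, 10.1 and 7.43 CPM in doxorubicin libraries against 15.9, 13.6, 13.4, 14.9 and 14.00 CPM in PBS libraries, and its groups did not overlap. Pola2 shares 7510 bases on the same strand with the gene of Cdc42 effector protein 2, which had a similar number of reads, so its values also depend on how reads were assigned. The primase subunits Prim1 and Prim2 fell by 1.28 and 1.12 with doxorubicin against PBS, and by 1.46 and 0.94 with both compounds against histidine.

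The clamp, its loader and the single-strand binding proteins had the smallest median change of the roles. Pcna, the sliding clamp, had 33.7, 36.2, 39.3, 56.1 and 36.7 CPM in doxorubicin libraries against 76.6, 78.4, 68.9, 71.96 and 73.4 CPM in PBS libraries. All 5 doxorubicin libraries were below all PBS libraries, with replicate 4 nearest to them, and Pcna fell by 0.87 (SE 0.11, edgeR adjusted p 2.98e-06). It fell by 1.21 (SE 0.11, adjusted p 3.94e-08) with both compounds against histidine. Per gene length Pcna had the highest level of the 45 in PBS libraries, 45.7 ± 2.44 FPKM, and in doxorubicin libraries, 25.6 ± 4.11 FPKM (SD, n = 5 each).

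The clamp loader shares Rfc2 to Rfc5 among its small subunits. Rfc3 changed most, with 9.200, 10.3, 9.603, 10.6 and 7.66 CPM in doxorubicin libraries against 19.6, 21.3, 17.5, 17.4 and 18.7 CPM in PBS libraries. The groups did not overlap, and Rfc3 fell by 1.00 (SE 0.08, edgeR adjusted p 7.19e-09) and, with both compounds against histidine, by 1.24 (SE 0.08, adjusted p 2.98e-10). Rfc5 and Rfc2 fell by 0.56 and 0.55 in the first comparison, and by 0.78 and 0.80 in the second.

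Rfc4 had the only call that differed between the comparisons. It measured 7.72, 7.75, 8.37, 21.8 and 6.81 CPM in doxorubicin libraries, against 13.9, 15.02, 15.99, 14.4 and 14.4 CPM in PBS libraries. Libraries with both compounds had 7.57, 7.44, 7.03, 8.56 and 8.68 CPM, against 15.8, 14.7, 16.9, 18.2 and 17.6 CPM with histidine. Doxorubicin replicate 4 was above every PBS library, while the other 4 were below all of them. The log2 fold change with doxorubicin against PBS was -0.49 (SE 0.23, edgeR adjusted p 0.0909), and without replicate 4 it was -0.94 (SE 0.08, adjusted p 2.58e-08). With both compounds against histidine Rfc4 fell by 1.08 (SE 0.23, adjusted p 0.000814), and the interaction, -0.59 (SE 0.32, adjusted p 0.631), did not pass the test.

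Rpa1, the large subunit of the single-strand binding protein RPA, was the least changed gene that fell. It had 43.01, 45.6, 47.1, 54.5 and 41.7 CPM in doxorubicin libraries against 63.9, 57.1, 51.4, 58.1 and 58.7 CPM in PBS libraries. Replicate 4 with doxorubicin exceeded the lowest PBS library, and the other 4 were below all PBS libraries. Rpa1 fell by 0.32 (SE 0.08, edgeR adjusted p 0.00439), a 1.25-fold difference, and by 0.40 (SE 0.08, adjusted p 0.000743) with both compounds against histidine. Its partner Rpa2 fell by 0.78 and 1.04.

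Both genes that finish lagging-strand fragments fell. Fen1, the flap endonuclease, had 8.22, 7.799, 10.5, 7.94 and 8.08 CPM in doxorubicin libraries against 19.4, 20.2, 21.7, 20.3 and 19.9 CPM in PBS libraries. Lig1, the DNA ligase that seals the nicks, had 31.8, 35.2, 33.4, 22.8 and 36.2 CPM in doxorubicin libraries against 68.9, 72.9, 67.9, 67.7 and 68.4 CPM in PBS libraries. Neither gene's groups overlapped; doxorubicin replicate 3 was highest for Fen1, and replicate 4 was lowest for Lig1. Fen1 fell by 1.26 (SE 0.10, edgeR adjusted p 3.86e-09) and 1.54 (SE 0.10), and Lig1 by 1.12 (SE 0.09, adjusted p 6.36e-09) and 1.10 (SE 0.09).

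**Figure D4:**
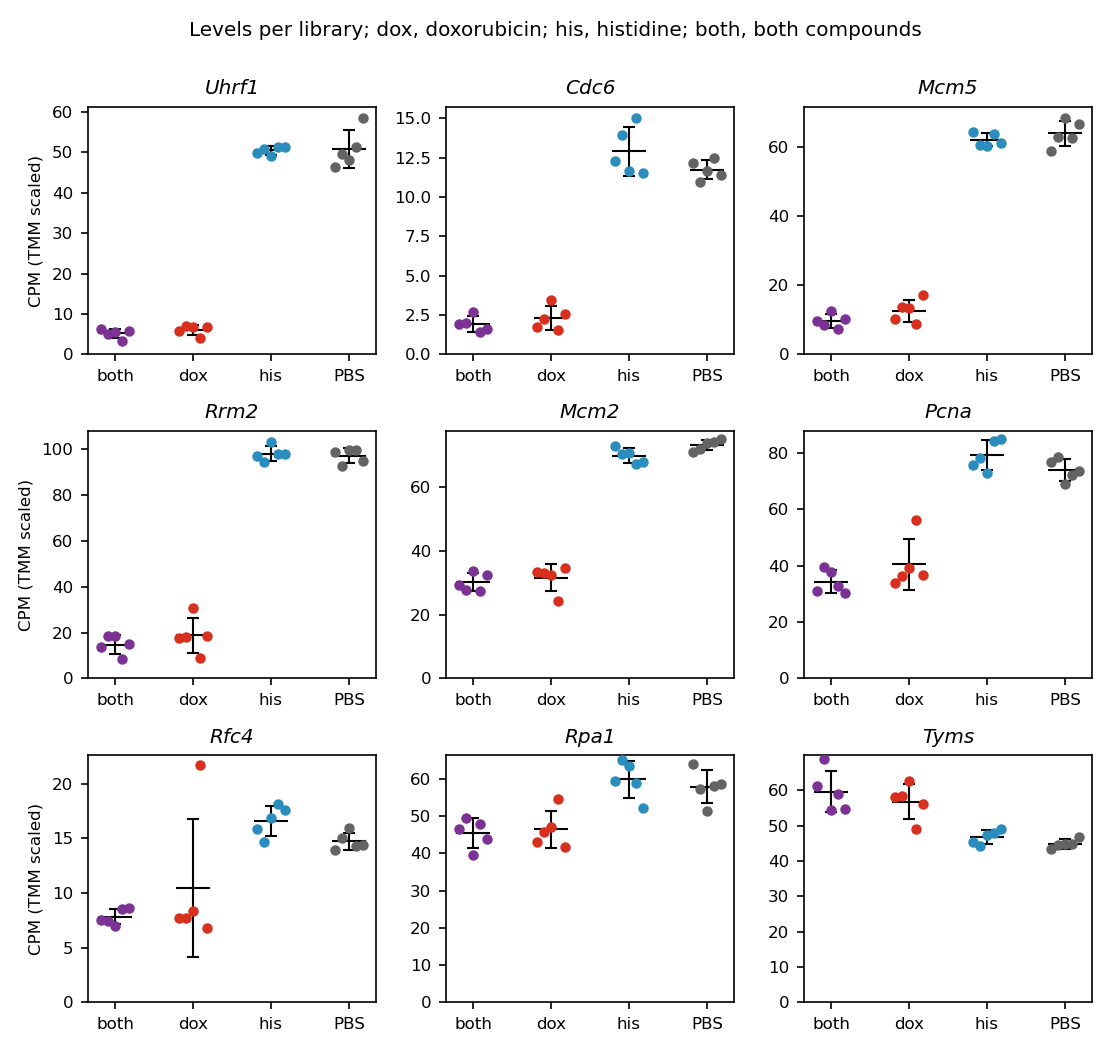
CPM of 9 genes in each library, with both compounds, doxorubicin, histidine and PBS from left to right. Points are libraries, and bars are the mean and SD of 5. Uhrf1, Cdc6, Mcm5 and Rrm2 lie far below the libraries without the drug, Mcm2 and Pcna less so, Rpa1 overlaps, Rfc4 has a doxorubicin library at 21.8 CPM above all PBS libraries, and Tyms lies higher with the drug.

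Nucleotide supply genes moved in opposite directions. Tyms, which makes thymidylate from deoxyuridylate, was the only 1 of the 45 to rise. It measured 57.9, 58.4, 62.5, 49.01 and 55.9 CPM in doxorubicin libraries, against 43.3, 44.4, 44.6, 44.8 and 46.9 CPM in PBS libraries. With both compounds it measured 61.1, 68.7, 54.4, 58.9 and 54.7 CPM, against 45.4, 44.1, 47.2, 48.00 and 48.99 CPM with histidine. Every library with the drug was above every library of its control group, narrowly for doxorubicin replicate 4. Tyms rose 1.27-fold, by 0.34 on the log2 scale (SE 0.07, edgeR adjusted p 0.000514), and by 0.35 (SE 0.07, adjusted p 0.000439) in the second comparison. No other gene of the table overlaps Tyms at chr9:113313452-113329536. Among the 45, Tyms had rank 2 per gene length in doxorubicin libraries, at 21.5 ± 2.97 FPKM, and rank 13 in PBS libraries, at 16.3 ± 0.433 FPKM (SD, n = 5 each).

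Ribonucleotide reductase makes deoxynucleotides from ribonucleotides, with Rrm1 as its large subunit and Rrm2 as the small subunit of dividing cells. Rrm2 measured 17.5, 17.9, 30.8, 8.997 and 18.6 CPM in doxorubicin libraries, against 98.8, 92.6, 99.9, 99.8 and 94.9 CPM in PBS libraries. All doxorubicin libraries, replicate 3 being the highest, were far below all PBS libraries. Rrm2 fell by 2.37 (SE 0.23, edgeR adjusted p 7.21e-08), and with both compounds against histidine by 2.73 (SE 0.24, adjusted p 1.20e-08). Rrm1 fell by 1.47 and 1.50. Rrm2b, the small subunit used outside S phase, is not among the 45 and went the other way, with 21.3, 21.9, 22.6, 17.2 and 20.3 CPM in doxorubicin libraries against 16.4, 11.8, 12.4, 12.5 and 12.7 CPM in PBS libraries. Its groups did not overlap, and it rose by 0.65 (SE 0.10, edgeR adjusted p 1.49e-05). Per gene length, Rrm2b over Rrm2 was 1.13 ± 0.389 in doxorubicin libraries and 0.124 ± 0.0163 in PBS libraries, and 1.54 ± 0.587 with both compounds and 0.127 ± 0.00886 with histidine (SD, n = 5 each).

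Tk1, thymidine kinase of the salvage route, fell in both comparisons, and its counts also varied within groups. It had 7.31, 9.53, 2.81, 7.65 and 7.96 CPM in doxorubicin libraries, against 54.7, 52.7, 22.4, 62.9 and 22.7 CPM in PBS libraries. Libraries with both compounds had 7.87, 6.71, 8.42, 2.09 and 7.39 CPM, against 61.9, 22.4, 58.6, 19.1 and 19.9 CPM with histidine. The libraries without doxorubicin fell into a low and a high set, in either group. The gene length that reads and FPKM together imply split the libraries the same way: it was 1.44 to 1.45 kb in 7 libraries and 2.11 to 2.30 kb in 13. Among libraries with the longer length, Tk1 was 7.31 to 9.53 CPM with doxorubicin, against 52.7 to 62.9 CPM with PBS. Among those with the shorter length it was 2.81 CPM in 1 doxorubicin library, against 22.4 and 22.7 CPM in 2 PBS libraries. The drug libraries were lower within each length, and over all libraries Tk1 fell by 2.61 (SE 0.45, edgeR adjusted p 9.35e-05) and 2.49 (SE 0.45, adjusted p 0.000166). Tk1 was the only 1 of the 45 whose implied length varied by over 1.2-fold, which 8.92% of 12386 genes with at least 50 reads in every library did. It overlaps Syngr2 on the other strand over 2953 bases.

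**Figure D5:**
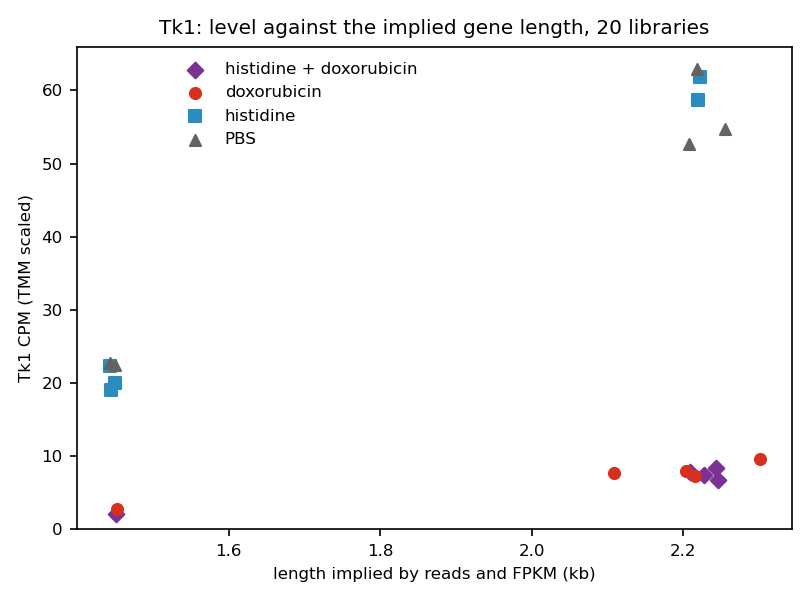
Tk1 level in CPM (vertical axis) against the gene length implied by reads and FPKM in kilobases (horizontal axis) in the 20 libraries, marked by group. At either length the libraries with doxorubicin lie below those without it.

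Dut, which removes deoxyuridine triphosphate, fell by 0.75 (SE 0.11) and 1.11 (SE 0.11). A second gene of the table with the same protein name held 18.5 to 24.0% of the reads of both, by group, and is not counted here.

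S-phase entry and control genes fell in both comparisons, all 6 of them. Uhrf1, which recruits the maintenance DNA methyltransferase to newly copied DNA, changed most of the 45. It measured 5.86, 7.01, 6.83, 3.95 and 6.79 CPM in doxorubicin libraries, against 46.4, 49.6, 48.2, 51.3 and 58.5 CPM in PBS libraries. With both compounds it measured 6.22, 5.01, 5.55, 3.42 and 5.73 CPM, against 49.8, 50.9, 49.04, 51.3 and 51.4 CPM with histidine. The libraries with the drug lay far below those without it, and replicate 4 was lowest in both drug groups. Its level was 8.34-fold lower, a log2 fold change of -3.06 (SE 0.15, edgeR adjusted p 3.69e-12), and 9.73-fold lower, -3.28 (SE 0.16, adjusted p 1.58e-12), in the second comparison. Dtl, the receptor of the ubiquitin ligase that destroys Cdt1 in S phase, fell by 1.93 and 2.13. The cyclin E genes Ccne1 and Ccne2, partners of Cdk2, fell by 1.13 and 1.38 in the first comparison, and by 1.03 and 1.42 in the second. Chek1, the replication checkpoint kinase, fell by 1.09 and 1.15. E2f1 itself changed least of the 6, with 6.01, 6.74, 5.87, 11.4 and 6.91 CPM in doxorubicin libraries against 13.4, 13.5, 13.4, 14.6 and 12.4 CPM in PBS libraries. Replicate 4 was the highest doxorubicin library and still below PBS, and E2f1 fell by 0.86 (SE 0.14, edgeR adjusted p 4.08e-05) and 0.99 (SE 0.14, adjusted p 9.36e-06).

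None of the 45 passed the test with histidine alone. With histidine against PBS, edgeR called 0 of the 45 and 0 of all genes, and none of the 45 had an unadjusted p under 0.05, beside 2.02% of all genes. DESeq2 and limma also called 0 of the 45. The groups did not overlap for 1 gene, Rfc5 at 0.16 (edgeR adjusted p 1.000), where 0.395% of all genes lay wholly higher and 0.447% wholly lower. The median log2 fold change was 0.03, and the values ran from -0.24 for Tk1 to 0.52 for Gins2. Mcm5, for example, had a 95% interval of -0.34 to 0.25 on the log2 scale, and Uhrf1 of -0.30 to 0.29. These intervals give the precision of the estimates and are not limits of detection. In simulated counts for histidine against PBS, 53.7% of 1.5-fold and 76.1% of 2-fold changes were recovered, and the rest were missed. Each rate is over 67 changed genes among 15205, not over the 45 genes as a set. The recovery of such changes in the 45 was not tested. Smaller changes, such as those within these intervals, were not simulated, and their detection was not tested.

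None passed it when histidine was added to doxorubicin either. With both compounds against doxorubicin, edgeR, DESeq2 and limma each called 0 of the 45, and edgeR called 0.00% of all genes. The median was -0.12, beside -0.01 over all genes, and 33 of the 45 values were below 0, as were 51.9% of all genes. The 45 genes are not independent, so this count is a description. An unadjusted p under 0.05 was found for 8 genes, beside 12.6% of all genes: Dut at -0.33, Rfc3 at -0.23, Mcm5 at -0.38, Gmnn at -0.43, Fen1 at -0.24, E2f1 at -0.33, Prim1 at -0.16 and Pcna at -0.24, with adjusted p of 0.393 to 0.397. Several of these values rested on 1 doxorubicin library. Without replicate 4, Dut was at -0.18, Gmnn at -0.29, E2f1 at -0.12 and Pcna at -0.09. Fen1 was at -0.15 without replicate 3, and Mcm5 at -0.25 without replicate 5. Over the 45 genes, leaving out replicate 4 gave 13 with an unadjusted p under 0.05, beside 7.29% of all genes, and leaving out replicates 3 and 4 gave 6, beside 5.09%, with 0 called either way. The groups of Mcm5 overlapped, at 7.37 to 12.6 CPM with both compounds and 8.81 to 17.1 CPM with doxorubicin, and so did the groups of all 45, where 0.492% of all genes lay wholly lower and 0.563% wholly higher with both compounds.

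The interaction, which asks whether the drug effect differs with histidine, also had 0 calls among the 45 in edgeR, DESeq2 and limma. Its median was -0.13, beside -0.01 over all genes, and 35 of the 45 values were below 0, as were 51.3% of all genes. An unadjusted p under 0.05 was found for 4 genes, beside 6.86% of all genes: Gmnn at -0.56, Dut at -0.36, Pcna at -0.34 and Rfc2 at -0.25, each with an adjusted p of 0.631. Doxorubicin replicate 4 was the highest of its group for 12 of the 45 genes, these 4 included, and for 37.8% of all genes. Without it, Gmnn was at -0.42, Dut at -0.21, Pcna at -0.19 and Rfc2 at -0.21. Also without it, 8 of the 45 had an unadjusted p under 0.05 in the interaction, beside 6.24% of all genes, and without replicates 3 and 4 it was 1, beside 4.62%, with 0 called either way.

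The summed level of the 45 had an SD of 39.1 CPM over the doxorubicin libraries and 11.7 CPM over the PBS libraries. Replicate 4 was the lowest of its group for 24 of the 45 genes, Mcm2, Mcm4 and Pole among them, and the highest for 12, among them Pcna, Rfc4 and E2f1. Replicate 3 was highest for 17, among them Mcm7, Cdc6, Fen1 and Rrm2. With both compounds, replicate 4 was lowest for 26 and replicate 3 highest for 20. Over all genes, doxorubicin replicate 4 was lowest for 36.9% and highest for 37.8%, and doxorubicin replicate 3 highest for 19.5%. With both compounds, replicate 4 was lowest for 15.7% of all genes and replicate 3 highest for 23.5%. The sum over the 45 was 603 to 700.1 CPM in doxorubicin libraries against 1543 to 1574 CPM in PBS libraries, and the 2 ranges were far apart.

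Related genes outside the 45 were counted in lists by pathway, chosen like the 45 with earlier results of these data known. For all these lists, the shares over all genes were 21.5% lower and 21.7% higher with doxorubicin against PBS. With both compounds against histidine they were 20.3% lower and 19.9% higher. Of 34 other replication factors, 19 fell and 2 rose with doxorubicin against PBS, with a median of -0.37, and 18 fell and 1 rose with both compounds against histidine. Dbf4, the activating subunit of the Cdc7 kinase, fell by 1.99 (SE 0.14), Dscc1, of an alternative clamp loader, by 2.46 (SE 0.19), Topbp1, a scaffold of initiation and checkpoint, by 1.09 (SE 0.09), and Ticrr, an initiation factor, by 2.60 (SE 0.23). Several partners of the 45 did not pass the test, among them Rpa3 at 0.13, Orc5 at 0.10, Pole3 at 0.18, Pole4 at 0.28 and Pold4 at 0.28. The genes named here all lie above 0, but 24 of the 34 values were below 0. With both compounds against histidine, 29 of the 34 were below 0. Orc4, of the origin recognition complex, rose by 0.47 (SE 0.13, edgeR adjusted p 0.00638), opposite in sign to Orc1. Doxorubicin replicate 4 had 41.7 CPM of Orc4 where the other 4 had 27.9 to 30.8 CPM. Without that library Orc4 rose by 0.36 (edgeR adjusted p 0.0187). Rnaseh2a was called at 2.11 (SE 0.80), but the value was 0.12 (adjusted p 0.881) without doxorubicin replicate 4, which had 17.03 CPM where the other 4 had 0.361 to 2.54 CPM.

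Nucleotide genes outside the 45 fell more often than they rose. Of 24 other pyrimidine and deoxynucleotide genes, 11 fell and 4 rose, with a median of -0.33, and 13 fell and 2 rose in the second comparison. The shares that rose were below the 21.7% and 19.9% of all genes called higher in the 2 comparisons. Upp1, uridine phosphorylase, fell by 2.13 (SE 0.18), Samhd1, which breaks down deoxynucleotides, by 1.21 (SE 0.14), and the folate enzymes Mthfd1 and Mthfd2 by 0.51 and 0.72. Beside Rrm2b, the genes that rose were Dguok, the mitochondrial deoxyguanosine kinase, at 0.49, Ctps2, a CTP synthase, at 0.38, and Nme1, a nucleoside diphosphate kinase, at 0.64. The call on Nme1 was lost without doxorubicin replicate 4 (0.42, adjusted p 0.0973). Of 19 purine genes, 8 fell and 3 rose, with a median of -0.13. Pnp fell by 0.51 and Ppat by 0.54, and Ak1 rose by 0.95. Aprt rose by 0.60, or 0.29 without doxorubicin replicate 4, and Impdh1 by 0.17, a call lost in 16 of the 20 fits that left out a library. In the second comparison 8 purine genes fell and 1 rose. For purine genes, too, the shares that rose were below those of all genes.

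Regulators of the programme also fell more often than they rose. Of 25 E2F, pocket protein and MuvB genes, 13 fell and 4 rose, with a median of -0.51, and 13 fell and 3 rose in the second comparison. The shares that rose were below the 21.7% and 19.9% of all genes called higher. Ccna2, cyclin A2, fell by 3.06 (SE 0.18), Mybl2, the B-Myb factor, by 2.92 (SE 0.18), Cdk2 by 1.27 (SE 0.09) and E2f6, a repressor E2F, by 0.65 (SE 0.05). Those that rose were Tfdp2 at 0.60, Cdk6 at 0.56, Lin37 at 0.39 and Fbxw7 at 0.38, and Lin37 lost its call without doxorubicin replicate 4 (0.22, adjusted p 0.0604). Rb1, the retinoblastoma gene, was at 0.09 (edgeR adjusted p 0.479) with doxorubicin against PBS and rose by 0.43 (adjusted p 0.00205) with both compounds against histidine. EdgeR called 0 of all genes in the interaction, Rb1 included, so no difference between the 2 comparisons was shown. Of 12 checkpoint genes 5 fell, among them Wee1 at -0.96, Chek2 at -0.99, Atm at -0.64 and Atrip at -0.24, and 0 rose.

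Of 5 genes of p21 and its feedback, 4 rose and 1 did not pass the test, in either drug comparison. Cdkn1a, which encodes the kinase inhibitor p21, measured 971, 952, 960.3, 1421 and 1048 CPM in doxorubicin libraries, against 146, 161, 176, 159 and 157 CPM in PBS libraries. The groups were far apart, with replicate 4 the highest, and Cdkn1a rose by 2.74 (SE 0.11, edgeR adjusted p 1.37e-13). Mdm2, a ubiquitin ligase, rose by 2.14 (SE 0.32), with 459.7 to 544 CPM in doxorubicin libraries against 108 to 118 CPM in PBS libraries. In the second comparison Cdkn1a rose by 2.56 (SE 0.11) and Mdm2 by 2.06 (SE 0.32), with Mdm2 at 477, 525, 465, 464 and 133 CPM with both compounds and 30.6, 111, 124, 117 and 112 CPM with histidine, so 1 library of each group was far below the rest. Ccng1, cyclin G1, rose by 1.67 and Gadd45a, a DNA damage response gene, by 0.84 with doxorubicin against PBS.

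Mitotic genes, which act after replication is complete, also fell. All 25 fell, with a median of -3.08 with doxorubicin against PBS and -3.47 with both compounds against histidine. Mki67, a marker of cycling cells, had 14.5, 18.9, 27.7, 10.1 and 18.6 CPM in doxorubicin libraries against 171, 194, 173, 188 and 191 CPM in PBS libraries. Summed over the list, mitotic genes were at 182 ± 45.7 CPM with doxorubicin and 1393 ± 25.2 CPM with PBS, while the 45 kept 0.413 of their PBS sum. Bub1, a spindle checkpoint kinase, fell by 3.07, Cdc20, an activator of anaphase, by 3.38, Ccnb1, cyclin B1, by 3.56 and Prc1, of the central spindle, by 3.31. The difference between the lists was not tested.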

How the data were processed

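RNA of 20 samples was sequenced, 5 for each of 4 groups, and grouped by the sample labels. The authors deposited, per gene, the read counts and FPKM (counts scaled by gene length and library total). Per the submitters' processing notes, reads were trimmed with Trimmomatic and the build was mRatBN7.2; no aligner or counter is named in the labels or headers. No stated step uses strand, and how reads of overlapping genes were assigned is not stated.

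From the deposited counts, edgeR 4.0.16 (R 4.3.3) fitted 1 quasi-likelihood model to all 4 groups, with TMM normalization (factors 0.903 to 1.06) and filterByExpr. Adjusted p-values are Benjamini-Hochberg over 15449 genes, with a threshold of 0.05. CPM values use TMM-scaled totals. Alternatives were DESeq2 1.42.0, limma 3.58.1 on log2(FPKM + 1), RLE factors, library totals, no filter, only the groups compared, a replicate block, each library left out, and doxorubicin replicates 3 and 4 left out together. Error rates were tested on simulated counts. The 45 genes, the pathway lists and the markers were chosen with earlier results of these data known. Values in every library are given for the gene with the largest and the smallest change of each role, for any that moved against the majority or changed call between the 2 drug comparisons, and for Cdkn1a, Mdm2, Mki67 and Rrm2b. Of each pathway list the 4 genes with the smallest p and those that moved against the majority are named. Some genes these rules select are not reported here. Pcna and Rrm2, and the pathway genes that did not pass the test, were added after their values were seen. Promoter windows come from RefSeq (GRCr8) and were matched by symbol. All 40 pairs of libraries within groups differed beyond sampling noise.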

Additional observations from a re-analysis of the deposited data

Results flagged for a closer look

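In 18 of the 180 sets of 5 libraries (45 genes in 4 groups), 1 library lay farther from the rest than Dixon's 95% limit allows; chance flags about 1 in 20, or 9 of 180. Doxorubicin replicate 4 gave 7 of them. It was highest for Rfc4 (21.8 CPM, others 6.81 to 8.37), Pcna (56.1 CPM, others 33.7 to 39.3), E2f1 (11.4 CPM, others 5.87 to 6.91) and Gins2 (3.41 CPM, others 2.00 to 2.31). It was lowest for Mcm4 (20.9 CPM, others 34.8 to 39.3), Mcm2 (24.1 CPM, others 32.4 to 34.6) and Pole (7.12 CPM, others 13.3 to 15.3). Over all genes that library was the highest of its group for 37.8% and the lowest for 36.9%.

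Doxorubicin replicate 3 gave 3, as the highest for Mcm7 (32.0 CPM, others 26.0 to 26.6), Fen1 (10.5 CPM, others 7.80 to 8.22) and Ccne1 (10.9 CPM, others 9.12 to 9.60). With both compounds, replicate 4 was lowest for Tk1 (2.09 CPM, others 6.71 to 8.42), which is the 1 library of its group with the shorter implied length, and replicate 2 was highest for Ccne2 (10.5 CPM, others 5.65 to 6.89). Histidine replicate 4 was lowest for Timeless (32.8 CPM, others 35.3 to 36.3). In PBS libraries, replicate 5 was highest for Mcm7 (62.0 CPM, others 58.0 to 59.0), replicate 3 for Gmnn (13.02 CPM, others 10.8 to 11.3) and replicate 2 for Lig1 (72.9 CPM, others 67.7 to 68.9). PBS replicate 2 was lowest for Mcm3 (55.7 CPM, others 59.4 to 60.8), and PBS replicate 1 for Cdc45 (9.16 CPM, others 11.7 to 12.3).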

How the results depend on the processing

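The count of the 45 genes that fell with doxorubicin against PBS was 43 in the reported fit and with DESeq2, RLE factors, library totals and no filter, 44 with limma and 42 when only the 2 groups were fitted. Leaving out each library in turn gave 42 to 44 lower and 1 higher; with both compounds against histidine every alternative gave 44 lower and 1 higher. The other 3 comparisons gave 0 calls among the 45 throughout; a fit of only the groups compared was not run for the interaction, which needs all 4. Of the single genes, Rfc4 with doxorubicin against PBS gained its call without doxorubicin replicate 4 (-0.94, edgeR adjusted p 2.58e-08), without doxorubicin replicates 3 and 4 (-0.99, 8.18e-08), with limma (-0.53, 0.0172) and with the block. Gins4 lost its call when only the 2 groups were fitted (adjusted p 0.0714) and when any of 5 single libraries was left out. No direction was reversed. The summed level of the 45 in PBS libraries was 1520 CPM by library totals, against 1560 CPM with TMM, and its ratio of doxorubicin over PBS was 0.450 in FPKM, against 0.413 in CPM. With library totals the median log2 fold change of all genes was 0.098 with doxorubicin against PBS, against 0.05 with TMM. In simulated counts for doxorubicin against PBS, 88.1% of 2-fold changes and 46.3% of 1.5-fold changes were recovered. The rates were 79.1% and 41.8% for both compounds against histidine, and 76.1% and 53.7% for histidine against PBS. For both compounds against doxorubicin they were 82.1% and 52.2%. The simulations changed far fewer genes than doxorubicin did here, and only well-covered ones, so the rates may differ in the real data.

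Whether the replicate numbers pair the libraries is not stated in the labels. The 30 correlations between same-numbered deviations from group means ran from -0.0766 to 0.193. The highest correlation of each with a library of another number ran from -0.0127 to 0.0794. The same-numbered value was the higher in some cases and the lower in others, so these values do not settle pairing. With the replicate number as a block, 44 of the 45 fell and 1 rose with doxorubicin against PBS (Rfc4 at -0.59, edgeR adjusted p 0.0295), 44 fell and 1 rose with both compounds against histidine, and 0 were called in the other comparisons.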
